A study of Mus musculus with 13 samples.

Results

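The genes described here encode the kinases on which 3 of the compounds of a 5-compound cocktail (5C) act. They are the ROCK genes Rock1 and Rock2, the protein kinase D (PKD) genes Prkd1, Prkd2 and Prkd3, and 5 genes of AMP-activated protein kinase (AMPK), which are Prkaa1 and Prkaa2 (catalytic alpha subunits), Prkab1 and Prkab2 (beta subunits) and Prkag1 (a gamma subunit). They were chosen by symbol, as genes of the kinases on which the compounds act, and all 10 were found among the 27141 genes of the expression tables and passed the filter on low counts, which left 19884 genes. The question was whether the level of a kinase gene moves when the cocktail is added to the cells or when one of its compounds is left out, and in particular whether the genes of a kinase move when its own compound is withheld.

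RNA was sequenced from dHeps, hepatocytes isolated from the livers of wild-type mice with liver injury caused by carbon tetrachloride (CCl4) and kept for 16 days in serum-free hepatocyte maintenance medium. Every group was made of such injured cells. The 7 groups received the solvent dimethyl sulfoxide (DMSO), 5C, or 5C with 1 compound withheld. The cocktail held forskolin (F), which activates adenylate cyclase, ETC-1002 (E), which activates AMPK, GSK429286A (G), which inhibits ROCK, CID755673 (C), which inhibits PKD, and Salidroside (S). A name such as 5C-G stands for the cocktail without the compound of that letter. There were 2 libraries in each of 6 groups, called A and B here, and 1 library in 5C-S. The labels do not say whether the libraries of a group came from separate mice or cultures, so the p-values measure the spread between these libraries.

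ROCK kinases promote actomyosin contraction, through phosphorylation of the myosin light chain and inhibition of its phosphatase, and actin filament stability, through LIM kinases and cofilin. PKD enzymes act downstream of diacylglycerol and protein kinase C, at the Golgi and on class IIa histone deacetylases. AMPK is a trimer of alpha, beta and gamma subunits that is phosphorylated by LKB1 (Stk11) when energy is low, and in the liver it restrains fatty acid and sterol synthesis. ETC-1002 (bempedoic acid) is converted in hepatocytes to its CoA form by the acyl-CoA synthetase encoded by Slc27a2 and inhibits ATP citrate lyase (Acly). All these compounds act on proteins, whereas the data below are levels of mRNA.

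Total counts ran from 30195867 to 45491932 per library, and the libraries of each pair differed by more than counting noise (chi-square per degree of freedom between 8.01 and 86.6). The labelled cell type was checked with 5 of 6 hepatocyte markers (Alb, Apoa1, Ttr, Serpina1a and Hnf4a), none of which was at 0 in any library. Their summed level was 10730 to 10740 FPKM (fragments scaled to gene length and library total) in 5C, 10390 to 11600 in DMSO, 17010 to 21480 in 5C-F, 6405 to 7745 in 5C-G, 6993 in 5C-S, 4568 to 4965 in 5C-C and 3007 to 3498 in 5C-E. The sum of 7 macrophage markers was 129.9 to 133.9 FPKM in 5C, 1327 to 1386 in DMSO, 1711 to 2722 in 5C-G and 198 to 709.1 in the other groups. Markers of stellate cells and fibroblasts summed to 795 to 1768 FPKM, those of cholangiocytes to 1456 to 3422 FPKM and those of endothelial cells to 9.34 to 89.4 FPKM, the endothelial genes Pecam1 and Cdh5 being at 0 in both 5C libraries. The mean GC content of a read's gene, weighted by counts, was lowest in 5C (49.79% and 49.81%) and highest in 5C-C B (51.84%), followed by 5C-G B (51.48%) and 5C-C A (51.3%), and log2 fold changes against 5C rose with the GC content of the transcript across 19787 genes in every removal (Spearman's rank correlation 0.26 to 0.41). Fold changes are therefore given from the count model as fitted and, for most of them, again with an offset per library that removes the trend with GC content and transcript length, named "with the offset".

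Base composition differs widely among the kinase genes, from 40.2% GC in the Rock1 transcript to 57.5% in that of Prkd2. Since it moves with the fold changes, stretches of 90 coding bases are shown, each picked because its GC content is closest to that of the whole transcript, with every G and C in capitals. The genomic positions are those of GRCm39 in the GENCODE vM39 annotation, and each stretch lies within 1 coding exon and is written in the direction of the gene. Prkaa2 (chr4:104897228-104897317, minus strand), Rock2 (chr12:16992757-16992846, plus strand) and Prkd3 (chr17:79292651-79292740, minus strand) are poor in G and C and had lower levels in several removals. Prkag1 (chr15:98712119-98712208, minus strand), which rose in 2 removals, is richer. Prkd1 (chr12:50536690-50536779, minus strand) is close to Prkag1, at 51.6% GC in the whole transcript beside 52.8%.
Prkaa2: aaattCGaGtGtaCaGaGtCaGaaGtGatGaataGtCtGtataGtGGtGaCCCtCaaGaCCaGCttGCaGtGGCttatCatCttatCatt
Rock2: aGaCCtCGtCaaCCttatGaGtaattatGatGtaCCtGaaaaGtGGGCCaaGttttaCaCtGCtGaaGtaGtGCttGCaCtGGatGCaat
Prkd3: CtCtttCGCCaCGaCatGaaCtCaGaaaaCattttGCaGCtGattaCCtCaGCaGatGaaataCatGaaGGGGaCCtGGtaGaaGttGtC
Prkd1: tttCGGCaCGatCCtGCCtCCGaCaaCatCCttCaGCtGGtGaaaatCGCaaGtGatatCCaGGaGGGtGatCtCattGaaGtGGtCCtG
Prkag1: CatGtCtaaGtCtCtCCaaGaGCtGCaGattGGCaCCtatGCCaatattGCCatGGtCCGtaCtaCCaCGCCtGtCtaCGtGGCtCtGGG
G and C made up 37 of the 90 bases in Prkaa2, 38 in Rock2, 40 in Prkd3, 46 in Prkd1 and 48 in Prkag1. The whole genes lie at chr12:16944797-17037834 (Rock2), chr12:50387996-50696227 (Prkd1), chr7:16576822-16604389 (Prkd2), chr17:79256834-79328304 (Prkd3), chr15:5173186-5211750 (Prkaa1), chr4:104886845-104967102 (Prkaa2), chr5:116151645-116162567 (Prkab1), chr3:97565509-97581146 (Prkab2) and chr15:98710177-98729434 (Prkag1).

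All 10 genes were expressed in every library. Per length, Rock2 (5.31 to 22.2 FPKM) and Prkab1 (12.4 to 18.1 FPKM) were the most abundant and Prkaa2 (0.55 to 3.56 FPKM) the least, the mean FPKM of Prkaa2 standing at percentile 46.1 of the genes tested and that of Prkab1 at percentile 82.9. Prkaa2 varied most between libraries (6.48 times from lowest to highest), followed by Prkd1 (5.14 times) and Rock2 (4.18 times). Prkab1 (1.46 times) and Prkd2 (1.55 times) varied least. The lengths behind the FPKM values of Rock1 (18124 bases), Rock2 (13920) and Prkd3 (11035) exceed their canonical transcripts (7104, 7753 and 5946 bases), so the levels of these genes relative to others depend on that choice, and comparisons of 1 gene between groups do not.

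**Figure D1:**
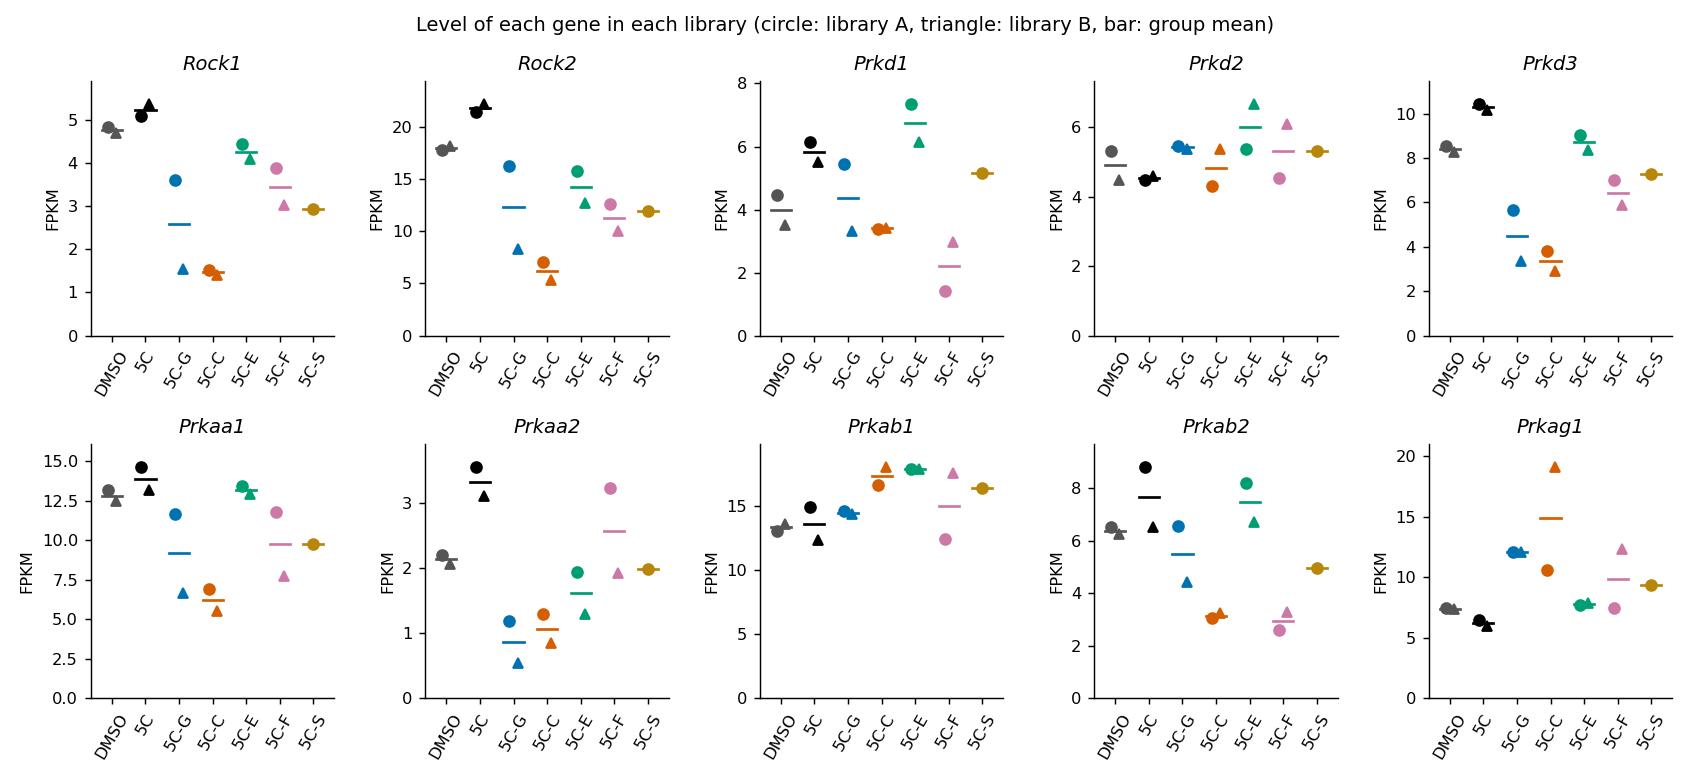
FPKM of each kinase gene (vertical axes, each from 0) in each library, by group (horizontal axis). Circles and triangles are libraries A and B, and bars are group means. Rock1, Rock2, Prkd3, Prkaa1, Prkaa2 and Prkab2 have their highest group mean in 5C, whereas Prkag1 has its lowest there.

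Within families, Rock2 gave 75.7% to 84.3% of the summed ROCK FPKM, Prkaa1 gave 78.5% to 92.4% of the alpha subunit FPKM and Prkab1 gave 62.9% to 84.8% of the beta subunit FPKM. The PKD family was mixed, with Prkd3 at 49.8% of its FPKM in 5C (mean of 2 libraries) and Prkd2 at 22.0%. In 5C-C this order was turned, with Prkd2 at 41.6% and Prkd3 at 29.1%, as it was in the mean of 5C-G (38.8% and 31.0%), where library B had the turn (44.6% and 27.9%) and library A did not (33.0% and 34.1%). In 5C-F the turn was seen in library B (40.6% and 39.4%) and not in the mean. The share of Prkab2 among the beta subunits was 34.6% to 37.1% in 5C and 15.2% to 17.2% in the 4 libraries of 5C-C and 5C-F. These shares carry the dependence on base composition described above, as Prkd2 and Prkab1 are the GC-rich members of their families. They were not recomputed with the offset, so whether the turn is kept with it was not tested. In 5C-C against 5C, the log2 fold change of Prkd2 was 0.26 as fitted and -0.31 with the offset. That of Prkd3 was -1.45 as fitted and -0.73 with the offset.

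**Figure D2:**
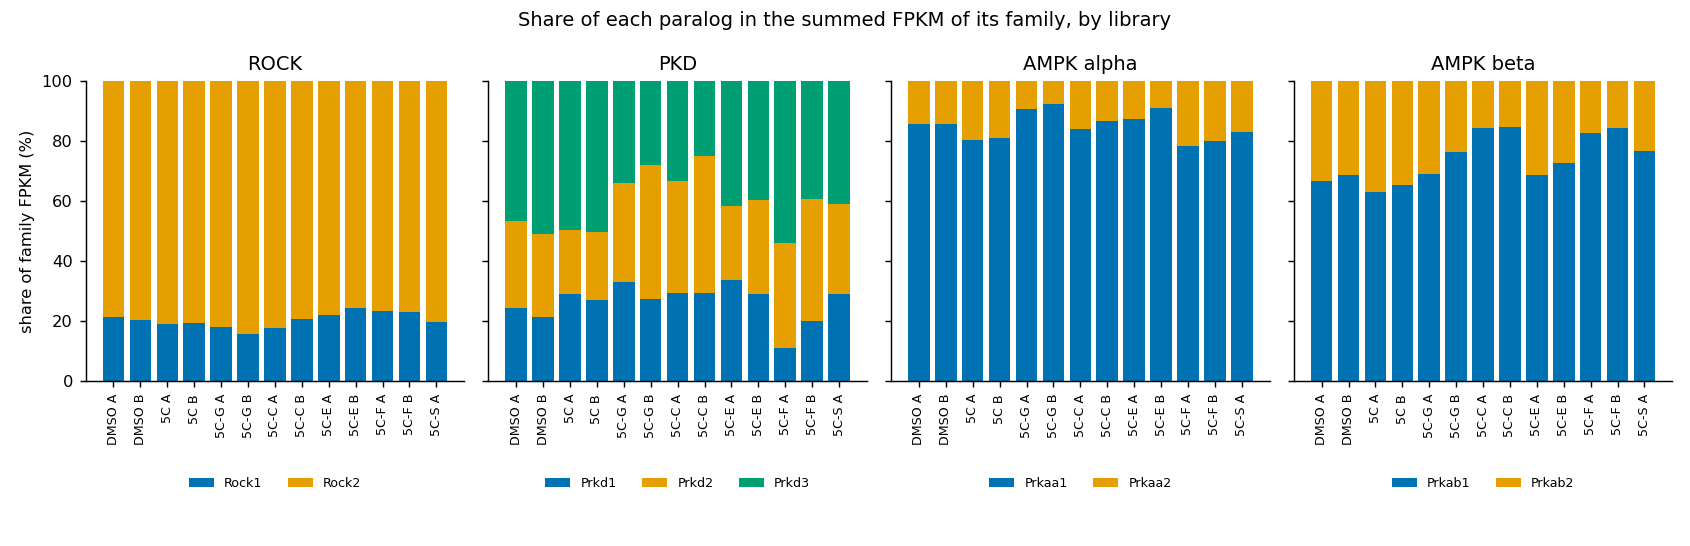
Share of each paralog in the summed FPKM of its family, in percent (vertical axis), for each of the 13 libraries (horizontal axis), as stacked bars. Rock2, Prkaa1 and Prkab1 hold most of their families in every library, whereas the PKD family is led by Prkd3 in both 5C libraries and by Prkd2 in both 5C-C libraries, in 5C-G B and in 5C-F B.

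In 5C against DMSO, 0 of 10 members passed an adjusted p of 0.05 in edgeR's quasi-likelihood test, beside 6.34% of all genes tested. None did so at an unadjusted p of 0.05 either (17.2% of all genes), DESeq2 gave 0 as well (11.1%), and 0 passed with the offset (8.3% of all genes). In 5C-G against 5C, 5 of 10 members passed (25.6% of all genes), of which 4 fell (11.5% of all genes) and 1 rose (14%). With the offset 3 passed (20.2%), of which 2 fell (8.03%) and 1 rose (12.2%). In 5C-C against 5C, 8 of 10 passed (35.8%), of which 6 fell (18.6%) and 2 rose (17.2%). With the offset 5 passed (24.9%), of which 4 fell (11.9%) and 1 rose (13%). In 5C-E against 5C, 0 passed (2.94%), with 2 at an unadjusted p of 0.05 (14.5%) and 1 by DESeq2 (7.89%). With the offset 2 passed (3.72%), both of them falls (2.61%). In 5C-F against 5C, 3 passed (10.7%), all of them falls (4.98%), and 2 with the offset (10.6%), both falls (4.9%). The median log2 fold change over the members was -0.45 in 5C-F, -0.43 in 5C-G, -0.13 in 5C-E and -1.06 in 5C-C, where the median over all genes lay within 0.01 of 0. With the offset these medians were, in the same order, -0.09, -0.13, -0.02 and -0.46. All of these removals are measured against the same 2 libraries of 5C, so they are not independent of one another.

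**Figure D3:**
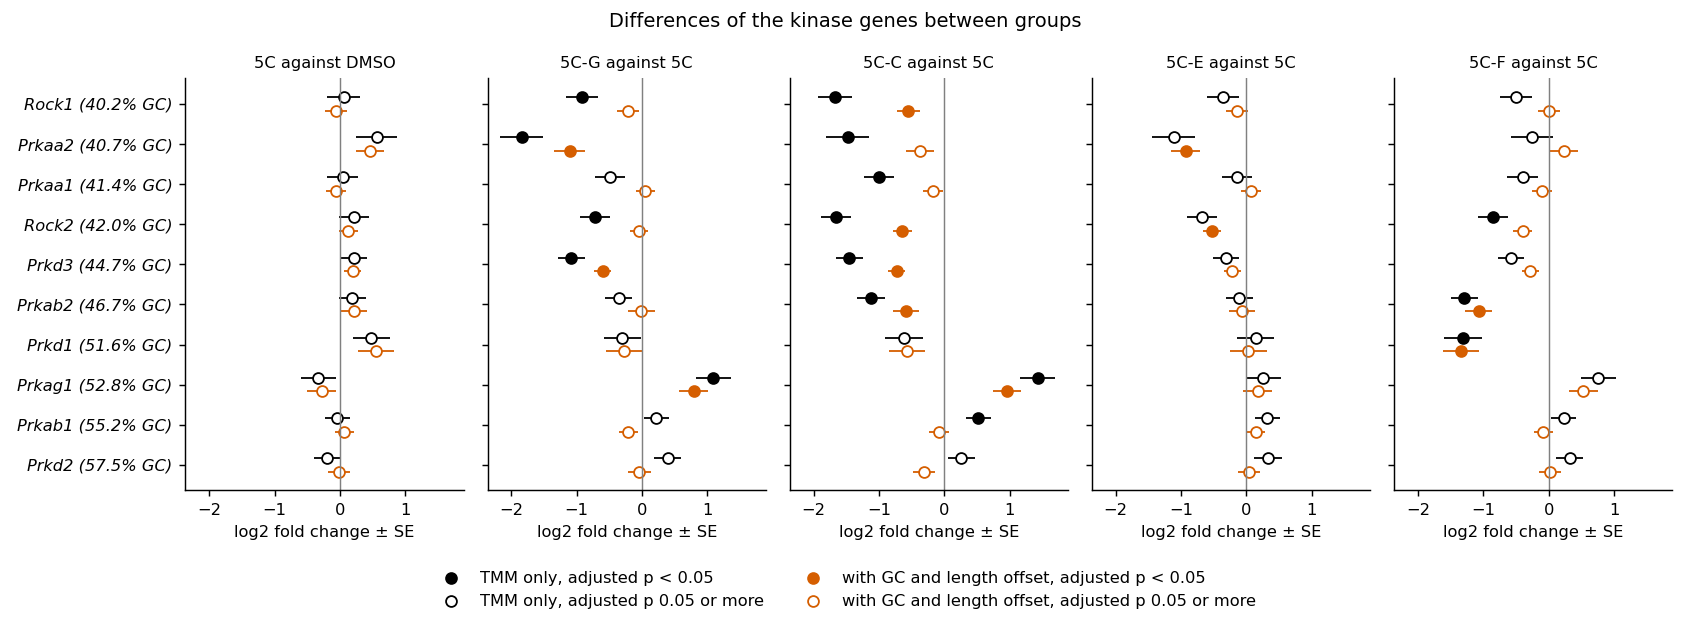
Log2 fold change ± SE (horizontal axis) of each kinase gene (rows, ordered by the GC content of the transcript) in 5 comparisons. Black points are the fit without and orange points the fit with the offset for GC content and length, and filled points have an adjusted p under 0.05. Most black points of the GC-poor genes lie left of 0 in 5C-G and 5C-C, and the offset brings them towards 0.

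Of the ROCK genes, Rock2, the more abundant paralog, was at 21.5 and 22.2 FPKM in 5C and at 17.8 and 18.2 FPKM in DMSO. It was at 7.02 and 5.31 FPKM in 5C-C, at 16.3 and 8.32 in 5C-G, at 15.8 and 12.8 in 5C-E, at 12.6 and 9.99 in 5C-F and at 11.9 in 5C-S. Every library of a removal group lay below both 5C libraries, and those of 5C-C lay below all others. Rock2 fell in 5C-C by 1.66 on the log2 scale (SE 0.23, 3.17-fold lower, adjusted p = 8.4e-05), and by 0.64 with the offset (adjusted p = 0.00277). It passed in all 19 alternatives run for that comparison, the offset with each library left out among them. In 5C-F it had a log2 fold change of -0.85 (adjusted p = 0.0272), which did not pass with the offset (-0.40, adjusted p = 0.0758) nor without 5C A, 5C B or 5C-F B (adjusted p between 0.12 and 0.205). In 5C-E it was at -0.68 (adjusted p = 0.142) and at -0.53 with the offset (adjusted p = 0.0381).

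Rock1 followed a similar course at a lower level, with 5.08 and 5.37 FPKM in 5C, 4.83 and 4.71 in DMSO, 1.53 and 1.4 in 5C-C, 3.61 and 1.56 in 5C-G, 4.44 and 4.09 in 5C-E, 3.88 and 3.02 in 5C-F, and 2.94 in 5C-S. The 5C-C libraries were the lowest. Rock1 fell in 5C-C by 1.67 on the log2 scale (SE 0.26, adjusted p = 0.000156), and by 0.55 with the offset (SE 0.18, adjusted p = 0.0292), a call that did not hold when the offset was combined with leaving out 1 library in 3 of 4 cases. In 5C-C, 2 of 5 hepatocyte markers were lower than in 5C and 1 was higher, and 5 of 7 macrophage markers were higher (summed level 402.7 to 709.1 FPKM, beside 129.9 to 133.9 FPKM in 5C). Their part in the changes of Rock1, Rock2 and the other members in 5C-C was not tested.

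Withholding the ROCK inhibitor was not followed by a rise of either ROCK gene. In 5C-G against 5C, Rock1 had a log2 fold change of -0.92 (SE 0.25, adjusted p = 0.0127) and Rock2 of -0.72 (SE 0.23, adjusted p = 0.0275). Both calls rested on 5C-G B, which was the lower of the pair (5C-G A had 2.32 times its level of Rock1 and 1.96 times that of Rock2). Without 5C-G B the values were -0.49 and -0.38 (adjusted p = 0.152 and 0.298). Nor did they pass without 5C A (adjusted p = 0.0532 and 0.0952) or without 5C B (adjusted p = 0.0654 and 0.107). With the offset they were -0.21 (SE 0.17) and -0.05 (SE 0.14). The library 5C-G B also had a higher GC content of counts than 5C-G A (51.48% against 50.74%), whose part in the difference between them was not tested.

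Of the PKD genes, Prkd3 was lower in both 5C-G and 5C-C. It was at 10.4 and 10.2 FPKM in 5C, at 8.56 and 8.27 in DMSO, at 5.64 and 3.36 in 5C-G, at 3.82 and 2.92 in 5C-C, at 9.05 and 8.38 in 5C-E, at 6.99 and 5.9 in 5C-F and at 7.29 in 5C-S. The libraries of 5C-G and 5C-C were below those of the other groups. Prkd3 fell by 1.45 in 5C-C on the log2 scale (SE 0.20, 2.74-fold lower, adjusted p = 8.42e-05) and by 0.73 with the offset (SE 0.13, adjusted p = 0.000831). In 5C-G it fell by 1.08 (SE 0.20, 2.11-fold lower, adjusted p = 0.00107) and by 0.60 with the offset (SE 0.13, adjusted p = 0.00366). Both falls passed in all 19 alternatives run for each. The gene overlaps Ndufaf7 on the opposite strand, which had counts of 709 to 1258 where Prkd3 had 1274 to 3856. Whether the counting used strand is not stated, so reads of the overlap cannot be told apart.

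Prkd1 had its lowest levels when forskolin was withheld. It was at 6.16 and 5.5 FPKM in 5C, at 4.45 and 3.5 in DMSO, at 1.43 and 2.98 in 5C-F, at 3.38 and 3.42 in 5C-C, at 5.45 and 3.3 in 5C-G, at 7.34 and 6.13 in 5C-E and at 5.17 in 5C-S. The 5C-F libraries were below all others, although they differed 2.09 times between themselves. Prkd1 fell in 5C-F by 1.31 on the log2 scale (SE 0.29, 2.49-fold lower, adjusted p = 0.0102), and by 1.34 with the offset (SE 0.28, adjusted p = 0.00665). The fall was of similar size but did not pass without 5C A (-1.25, adjusted p = 0.0812) or 5C B (-1.37, adjusted p = 0.068), and without 5C-F A it was -0.91 (adjusted p = 0.0735).

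Withholding the PKD inhibitor was not followed by a rise of a PKD gene that passed the test. In 5C-C, Prkd1 had a log2 fold change of -0.61 (SE 0.29, adjusted p = 0.108) or -0.57 with the offset, and Prkd2 had 0.26 (SE 0.21, adjusted p = 0.368) or -0.31 with the offset (SE 0.17). Prkd2, the most GC-rich of the genes, lay between 4.29 and 6.66 FPKM in all 13 libraries and passed in none of the comparisons tested.

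Of the AMPK genes, the alpha subunit gene Prkaa2 had the largest change of a member in 5C-G. It was at 3.56 and 3.11 FPKM in 5C, at 2.21 and 2.07 in DMSO, at 1.18 and 0.55 in 5C-G, at 1.3 and 0.848 in 5C-C, at 1.95 and 1.3 in 5C-E, at 3.24 and 1.92 in 5C-F and at 1.99 in 5C-S. The libraries of 5C-S, 5C-G, 5C-E and 5C-C lay below those of 5C and DMSO, and 5C-F overlapped both. In 5C-G, Prkaa2 fell by 1.84 on the log2 scale (SE 0.33, 3.58-fold lower, adjusted p = 0.000873) and by 1.11 with the offset (SE 0.23, adjusted p = 0.00215), and it passed in all 19 alternatives. In 5C-C it fell by 1.48 (SE 0.33, adjusted p = 0.00224), but with the offset it was at -0.37 (SE 0.22, adjusted p = 0.256). In these bulk libraries fewer cells that express a gene and less of its RNA per cell cannot be told apart. In 5C-G, 6 of 7 macrophage markers were higher than in 5C, and 2 of 5 hepatocyte markers were lower and 1 higher. Their part in the fall of Prkaa2 and in the changes of Rock1, Rock2, Prkd3 and Prkag1 there was not tested.

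Leaving out the AMPK activator moved none of the AMPK genes past the threshold. Prkaa2 had a log2 fold change of -1.11 in 5C-E (SE 0.33, adjusted p = 0.0847), and -0.93 with the offset (SE 0.22, adjusted p = 0.0236). Its adjusted p ranged from 0.00264 to 0.805 over 15 alternatives, of which 6 passed. The summed hepatocyte markers were lowest in this group, with 3 of 5 markers lower than in 5C, and their part in this value was not tested. The remaining AMPK genes had log2 fold changes between -0.15 (Prkaa1) and 0.32 (Prkab1) in 5C-E, with adjusted p-values from 0.456 to 0.883.

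Prkaa1, which supplies most of the alpha subunit mRNA, was at 14.6 and 13.1 FPKM in 5C and at 6.89 and 5.49 in 5C-C, with no overlap. It fell in 5C-C by 1.00 on the log2 scale (SE 0.23, adjusted p = 0.00312), and was at -0.17 with the offset (SE 0.15, adjusted p = 0.466). In no other comparison with 5C did it pass as fitted. In 5C-G it passed in 3 of 15 alternatives. One of them left out 5C-G A, whose level was 1.75 times that of 5C-G B, and gave -0.83 (adjusted p = 0.0188) in place of -0.49 (adjusted p = 0.139). With the offset the direction turned (0.05, adjusted p = 0.859).

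The beta subunit gene Prkab2 was lower in 5C-C and in 5C-F. It was at 8.8 and 6.54 FPKM in 5C, at 6.53 and 6.23 in DMSO, at 3.06 and 3.24 in 5C-C, at 2.59 and 3.29 in 5C-F, at 6.54 and 4.42 in 5C-G, at 8.21 and 6.72 in 5C-E and at 4.97 in 5C-S. The libraries of 5C-C and 5C-F lay below all others. Prkab2 fell in 5C-F by 1.29 on the log2 scale (SE 0.21, 2.44-fold lower, adjusted p = 0.00173) and by 1.07 with the offset (SE 0.21, adjusted p = 0.00345). In 5C-C it fell by 1.12 (SE 0.21, adjusted p = 0.000725) and by 0.59 with the offset (SE 0.20, adjusted p = 0.0455). Each call passed in 17 of 19 alternatives, the exceptions being the offset combined with leaving out 5C A in both comparisons, and with leaving out 5C-F A in the former and 5C-C A in the latter. In 5C-F all 5 hepatocyte markers and 6 of 7 macrophage markers were higher than in 5C, and their part in the falls of Prkab2 and Prkd1 there was not tested.

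The other beta subunit gene, Prkab1, was at 14.9 and 12.4 FPKM in 5C and at 16.6 and 18.1 in 5C-C. It rose there by 0.52 on the log2 scale (SE 0.19, adjusted p = 0.0386), but the sign turned with the offset (-0.08, SE 0.15), and it did not pass without 5C A, 5C B or 5C-C B (adjusted p = 0.0747, 0.229 and 0.178).

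The gamma subunit gene Prkag1 was the single member that rose in 5C-G and 5C-C both with and without the offset. It was at 6.47 and 6.02 FPKM in 5C, at 7.46 and 7.39 in DMSO, at 12.1 and 12.1 in 5C-G, at 10.6 and 19.1 in 5C-C, at 7.49 and 12.3 in 5C-F, at 7.73 and 7.91 in 5C-E and at 9.35 in 5C-S. All libraries outside 5C lay above both 5C libraries, and 5C-C B was the highest. Prkag1 rose in 5C-C by 1.43 on the log2 scale (SE 0.27, 2.69-fold higher, adjusted p = 0.000704) and by 0.96 with the offset (SE 0.22, adjusted p = 0.00431). In 5C-G it rose by 1.09 (SE 0.27, 2.13-fold higher, adjusted p = 0.00716) and by 0.79 with the offset (SE 0.22, adjusted p = 0.0175). The rise in 5C-G did not pass without 5C A (1.12, adjusted p = 0.0534), 5C B (1.01, adjusted p = 0.0731) or 5C-G B (1.00, adjusted p = 0.0523), and the rise in 5C-C did not pass when the offset was combined with leaving out 5C-C B (0.55, adjusted p = 0.0954). The antisense gene B130046B21Rik overlaps Prkag1 but had counts of only 0 to 23, beside 402 to 1898 for Prkag1.

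In 5C against DMSO, 7 of 10 members had libraries that did not overlap, as did 59.3% of all genes. Prkaa2 had a log2 fold change of 0.56 (SE 0.32, adjusted p = 0.41) and Prkd1 of 0.48 (SE 0.28, adjusted p = 0.438). In a fit restricted to the libraries of these 2 groups, both genes passed (adjusted p = 0.00382 and 0.0281), as did 30.5% of all genes. The remaining 8 members lay between -0.33 (Prkag1) and 0.22 (Prkd3). In 5C-S, with 1 library and no test, none of the members was beyond a log2 difference of 1 from 5C, where 18.9% of all genes were. The members lay between -0.89 (Rock2) and 0.57 (Prkag1).

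To ask whether a kinase's own compound mattered more than the withholding of any compound, each of 5C-G, 5C-C and 5C-E was compared with the mean of the 3 other removals with 2 libraries, a difference that contains no library of 5C or DMSO. Its error comes from the fit of all 13 libraries and so rests on those groups as well. For the ROCK genes, 5C-G differed from the other removals by -0.07 on the log2 scale in Rock1 (SE 0.20, adjusted p = 0.914) and by 0.34 in Rock2 (SE 0.18, adjusted p = 0.289). Over all members, 0 of 10 passed in this comparison (10.6% of all genes), with 2 at an unadjusted p of 0.05 (22.2%) and 1 by DESeq2 (15%). With the offset 3 passed (14% of all genes), among them Rock2 at 0.47 (SE 0.11, adjusted p = 0.00679). The result depended on which 5C-G library was used. Without 5C-G A, Rock1 was at -0.68 (adjusted p = 0.0267) and Rock2 at -0.10, and without 5C-G B, Rock1 was at 0.35 and Rock2 at 0.68 (adjusted p = 0.0274).

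For the PKD genes, 5C-C differed from the other removals in Prkd3, which was lower (log2 difference -0.80, SE 0.17, adjusted p = 0.0037), or -0.36 with the offset (SE 0.11, adjusted p = 0.0321). It did not pass without 5C-C B (-0.64, adjusted p = 0.0886), nor when the offset was combined with leaving out 5C-C A, 5C-C B, 5C-E A or 5C-E B (adjusted p between 0.066 and 0.126), and passed in 22 of 27 alternatives. Prkd1 (-0.12, SE 0.23) and Prkd2 (-0.09, SE 0.17) did not pass. Over all members 6 of 10 passed (23.4% of all genes), and 1 with the offset (18.6%). Rock1 and Rock2, the targets of another compound, were also lower in 5C-C than in the other removals (-1.08, adjusted p = 0.00248, and -0.91, adjusted p = 0.0037), and did not pass with the offset (-0.43, adjusted p = 0.0502, and -0.31, adjusted p = 0.0686). Whether these genes differ from Prkd3 in their response was not tested.

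For the AMPK genes, 5C-E differed from the other removals in Prkab2, which was higher by 0.82 (SE 0.16, adjusted p = 0.00193), and in Prkag1, which was lower (log2 difference -0.84, SE 0.23, adjusted p = 0.0122). With the offset they were at 0.48 (adjusted p = 0.0407) and -0.59 (adjusted p = 0.0296). Prkab2 did not pass without 5C-E A (0.70, adjusted p = 0.0566), nor with the offset and without 5C-E A, 5C-E B, 5C-F A or 5C-G B (adjusted p between 0.0669 and 0.304), and passed in 22 of 27 alternatives. Prkag1 passed in 19 of 27. It did not pass without 5C-E A (-0.78, adjusted p = 0.137) or 5C-E B (-0.85, adjusted p = 0.0879), with total counts as the scaling (-0.63, adjusted p = 0.0501), by limma on FPKM (-0.54 and -0.59, adjusted p = 0.0854 and 0.0792 with pseudocounts of 1 and 0.1), or with the offset and without 5C-E A, 5C-E B or 5C-F B (adjusted p between 0.0574 and 0.215). Prkaa1 (0.48, adjusted p = 0.0626), Prkaa2 (0.09, adjusted p = 0.865) and Prkab1 (0.00, adjusted p = 1.00) did not pass. With the offset they were at 0.14, -0.51 (adjusted p = 0.059) and 0.27, so that the direction of Prkaa2 turned. Over all members 5 of 10 passed (27% of all genes), and 4 with the offset (22.1%).

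The order of the members by fold change against 5C ran with their base composition in 5C-G, 5C-C and 5C-E, and less so in 5C-F. Over the 10 members the rank correlation of log2 fold change with transcript GC content was 0.33 in 5C-F, 0.85 in 5C-G, 0.92 in 5C-E and 0.85 in 5C-C, and 0.83 in the single library of 5C-S. It was -0.53 in 5C against DMSO, and against the mean of the other removals it was 0.28 in 5C-G, 0.79 in 5C-C and -0.36 in 5C-E. These values are descriptions over genes that share the same libraries. The offset moved the members by -0.43 to 0.73 on the log2 scale in 5C-G and by -0.59 to 1.12 in 5C-C, upwards for 7 members and downwards for 3 in each. The offset removes any difference that runs with GC content or length, whether it arose in library preparation or in the cells, and these cannot be told apart here.

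**Figure D4:**
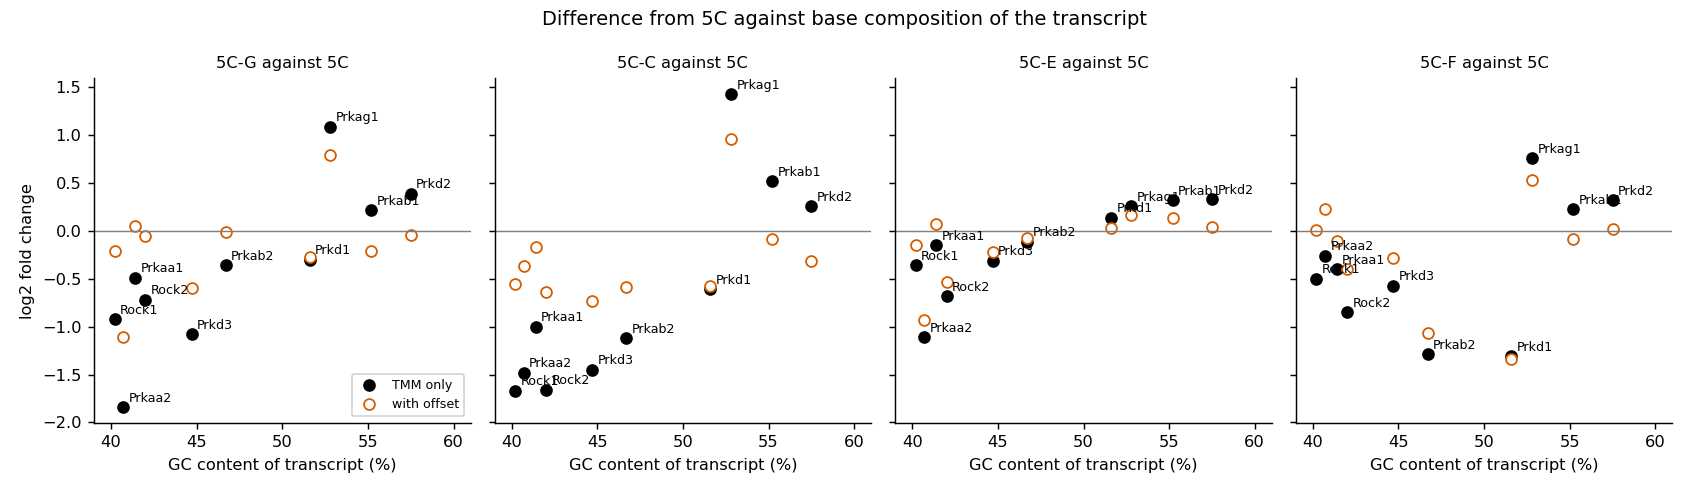
Log2 fold change against 5C (vertical axis) and GC content of the canonical transcript in percent (horizontal axis) of the 10 kinase genes in 4 removals. Filled points are the fit without and open points the fit with the offset. The filled points climb from left to right in 5C-G, 5C-C and 5C-E, and Prkd1 and Prkab2 stand below the rest in 5C-F with and without the offset.

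Across the 13 libraries 4 of the members, Rock1, Rock2, Prkd3 and Prkaa1, had similar courses. Pearson's r of log2 CPM between them was 0.9 to 0.96. Prkag1 (-0.84 to -0.94) and Prkab1 (-0.75 to -0.89) ran against these 4, as did Prkd2 more loosely (-0.43 to -0.54). Prkd1 went with Prkab2 (0.82) and little with these 4 (0.21 to 0.31). The genes with the most similar course among the genes tested were Mib1 for Rock1 (r = 0.993), Zhx1 for Rock2 (0.989), Ppp6r3 for Prkd3 (0.991) and Zfp451 for Prkaa1 (0.98). Those transcripts hold 43.3% to 45.8% GC, so they too are poor in G and C. For Prkaa2 it was Cps1 (r = 0.968), which encodes the urea cycle enzyme carbamoyl-phosphate synthase. For the others the nearest were Akap5 (Prkab2, 0.958), Fndc4 (Prkab1, 0.955), Srrt (Prkd2, 0.925), Gm43597 (Prkd1, 0.959) and Gm9794 (Prkag1, 0.98). All libraries differ in the composition of counts given above, which these correlations share.

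Promoters were examined because forskolin raises cAMP, which acts on cAMP response elements (CRE). Windows of 250 bases before to 50 bases after the start of the gene, from RefSeq on GRCm38.p6, were found for 9 of 10 members (11 windows). The full CRE, TGACGTCA, was in none of them and in 1.8% of all 32851 windows, and the TEAD motif GGAATG was in none and in 14.7%. The CRE half-site TGACG, which is the first part of the full CRE, was in 2 of the 11 and in 20.8% of all windows, on either strand. The GC box GGGCGG was in 9 of the 11 and in 35.7%. The 11 windows held from 40.7% GC (Prkd3) to 84.7% (Rock2), and the 35.7% is not matched for GC content. Both windows of Prkd2 overlap and are counted. The 2 windows with a half-site are those of Prkaa2 (chr4:105109849-105110148, minus strand) and Prkag1 (chr15:98831459-98831758, minus strand), shown with the half-site, or its reverse complement, in capitals. Neither Prkaa2 (-0.26, adjusted p = 0.658) nor Prkag1 (0.76, adjusted p = 0.0812) passed in 5C-F, where forskolin was withheld. Prkd1 and Prkab2, which fell without forskolin, have no half-site in their windows, which says only that these letters are not there.
Prkaa2 promoter: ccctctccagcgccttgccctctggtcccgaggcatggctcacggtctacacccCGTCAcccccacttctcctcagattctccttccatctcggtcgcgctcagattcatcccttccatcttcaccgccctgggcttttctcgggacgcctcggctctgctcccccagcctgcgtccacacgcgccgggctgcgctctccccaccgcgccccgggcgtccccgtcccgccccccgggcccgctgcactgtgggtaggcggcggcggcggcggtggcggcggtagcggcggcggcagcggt
Prkag1 promoter: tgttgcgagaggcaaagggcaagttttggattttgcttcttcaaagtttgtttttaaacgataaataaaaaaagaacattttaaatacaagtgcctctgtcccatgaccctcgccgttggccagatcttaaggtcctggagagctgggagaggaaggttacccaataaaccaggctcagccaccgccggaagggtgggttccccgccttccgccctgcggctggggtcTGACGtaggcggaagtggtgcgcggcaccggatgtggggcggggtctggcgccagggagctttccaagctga

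The pathways around the kinases were followed with lists of their other genes. Of 28 genes of the ROCK pathway (upstream regulators, myosin light chain and its phosphatase, LIM kinases, cofilins and ERM proteins), 11 rose and 8 fell in 5C-G, where 14% of all genes rose and 11.5% fell. In 5C-C, 7 rose and 11 fell (17.2% and 18.6% of all genes). In 5C-F, 3 rose and 5 fell (5.69% and 4.98%), in 5C-E 1 rose and 1 fell (1.18% and 1.76%), and in 5C against DMSO 4 fell (4.09%). With the offset the counts in 5C-G were 9 and 4 (12.2% and 8.03% of all genes). Myl9, a regulatory light chain of smooth muscle and non-muscle myosin, rose in 5C-G by 2.53 on the log2 scale (SE 0.22, adjusted p = 7.56e-07, and 1.81 with the offset), and fell in 5C-C by 1.20 (adjusted p = 0.000446, and by 2.18 with the offset) and in 5C-E by 1.00 (SE 0.21, adjusted p = 0.0145, and by 1.28 with the offset). It was also lower in 5C than in DMSO (-0.94, adjusted p = 0.00949). Against the other removals Myl9 was higher in 5C-G by 3.37 (SE 0.15, adjusted p = 5.54e-10), at 158.5 FPKM against 16.9. Des (desmin), a marker of stellate cells, moved the same way in 5C-G, from 15.4 to 86.1 FPKM (log2 fold change 2.64, adjusted p = 1.03e-06, and 2.20 with the offset), and was higher there than in the other removals by 1.84. Of the 9 markers of stellate cells and fibroblasts, 3 rose and 4 fell in 5C-G, and 6 of 7 macrophage markers rose there. The part of either in the rise of Myl9 and in the counts of the list was not tested. Cfl1, the non-muscle cofilin, rose in 5C-G by 1.46 (adjusted p = 4.64e-05) and by 1.35 with the offset. The median log2 fold change of the list in 5C-G was 0.32 (0.28 with the offset), where that of all genes was -0.01. Mylk, the myosin light chain kinase, fell in 5C-C by 2.07 (SE 0.19, adjusted p = 2.8e-06) and by 1.91 with the offset.

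Of 22 genes around PKD (protein kinase C isoforms, phospholipase C gamma, class IIa histone deacetylases and PKD substrates), 21 were in the tables. In 5C-G, 5 rose and 2 fell (14% and 11.5% of all genes, median of the list 0.18), and in 5C against DMSO 5 fell (4.09% of all genes, median -0.13). Hdac9, a class IIa histone deacetylase, was lower in 5C than in DMSO (log2 fold change -2.55, adjusted p = 8.88e-05), as were Prkcb (-2.49), Plcg2 (-1.85) and Prkch (-1.56). The same 4 genes rose in 5C-G, Prkcb by 1.96, Prkch by 1.82, Plcg2 by 1.81 and Hdac9 by 1.66 (adjusted p between 0.000179 and 0.00198), all at low levels of 0.16 to 4.8 FPKM in the group means. All 4 passed with the offset in both comparisons, which share the 5C libraries. Plcg2 rose also in 5C-C (0.80, adjusted p = 0.0273) and in 5C-F (0.87, adjusted p = 0.047), and neither call was kept with the offset (0.59, adjusted p = 0.0813, and 0.75, adjusted p = 0.0516). Hdac9 rose in 5C-F (1.26, adjusted p = 0.0261, and 1.64 with the offset) and fell in 5C-C (-1.24, adjusted p = 0.0122), where it was at -0.37 with the offset. Prkcb and Plcg2 are best known from blood cells, and the macrophage markers were higher in DMSO and 5C-G as given above. Their part in these differences was not tested. In 5C-C, 3 of the 21 rose and 6 fell (17.2% and 18.6% of all genes), and with the offset 0 rose and 4 fell (13% and 11.9%). In 5C-F, 2 rose and 0 fell (5.69% and 4.98% of all genes, median of the list -0.07). In 5C-E 0 of the 21 passed in edgeR's test, with or without the offset (2.94% and 3.72% of all genes).

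Of 28 genes around AMPK (its remaining gamma subunits, upstream kinases and their partners, substrates and regulators), 3 rose and 7 fell in 5C-G (14% and 11.5% of all genes, median of the list -0.16). In 5C-C, 1 rose and 11 fell (17.2% and 18.6% of all genes, median -0.30), in 5C-E 1 rose and 1 fell (1.18% and 1.76%), and in 5C-F 1 rose (5.69%). With the offset, the numbers that fell were 2 in 5C-G (8.03% of all genes) and 8 in 5C-C (11.9%). Stk11, which encodes LKB1, rose in 5C-G by 1.13 on the log2 scale (SE 0.22, adjusted p = 0.00157) and in 5C-C by 1.32 (SE 0.22, adjusted p = 0.000312), and by 0.52 and 0.49 with the offset. Acacb, an acetyl-CoA carboxylase phosphorylated by AMPK, fell in 5C-G by 1.11 (SE 0.22, adjusted p = 0.00137) and by 1.15 with the offset. Fnip2, a folliculin partner that binds AMPK, was lower in 5C than in DMSO (-1.07, adjusted p = 0.003) and rose in 5C-G by 0.92 (adjusted p = 0.00383) and by 1.29 with the offset, with which it was lower in 5C than in DMSO as well (adjusted p = 0.00152). The macrophage markers were likewise higher in DMSO and 5C-G than in 5C, and their part in the differences of Fnip2 was not tested. In 5C-E, Cab39l was lower (-0.78, adjusted p = 0.0342, and -0.65 with the offset) and Acaca higher (0.68, adjusted p = 0.0444, and 0.60 with the offset, adjusted p = 0.0731).

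Slc27a2, the synthetase that makes ETC-1002 active, fell in 5C-E by 1.61 on the log2 scale (SE 0.25, adjusted p = 0.000943), from 15.4 to 5.29 FPKM. It fell also in 5C-C by 1.95 (adjusted p = 4.63e-05) and in 5C-G by 1.19 (adjusted p = 0.00196), and by a similar size with the offset. Of the 5 hepatocyte markers, 3 were lower in 5C-E, 2 in 5C-C and 2 in 5C-G, and 2 did not pass in each. Alb, which encodes albumin, was at -2.03 in 5C-E, -1.50 in 5C-C and -0.99 in 5C-G. Ttr was at -1.61 in 5C-E and -0.81 in 5C-C, Serpina1a at -1.12 in 5C-E and Hnf4a at -1.05 in 5C-G, all with an adjusted p below the threshold, whereas Apoa1 rose in 5C-G (1.63, and 1.04 with the offset) and in 5C-C (0.96), where it did not pass with the offset (0.16, adjusted p = 0.436). Their part in the falls of Slc27a2 was not tested. Acly, the target of the active form, did not pass against 5C in any removal. Against the other removals, Acly was higher in 5C-E by 0.80 (SE 0.17, adjusted p = 0.00246, and 0.64 with the offset) and lower in 5C-C (-0.54, adjusted p = 0.0391, and -0.47 with the offset, adjusted p = 0.0296). Of 12 kinases related to AMPK that LKB1 activates, 11 were in the tables, of which 2 rose and 2 fell in 5C-G (14% and 11.5% of all genes) and 1 rose and 4 fell in 5C-C (17.2% and 18.6%). With the offset 0 rose and 2 fell in 5C-G (12.2% and 8.03%), and 1 rose and 4 fell in 5C-C (13% and 11.9%). In each of these removals, 0 of the rises passed both with and without the offset. Mark1 (-0.73 and -1.17) and Snrk (-0.70 and -0.88) fell in both, also with the offset.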

How the data were processed

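The authors prepared libraries with a kit for RNA sequencing, sequenced them as paired ends, and mapped the reads to GRCm39; the submitters' processing notes also name featureCounts of Subread and DESeq2. The authors deposited raw counts per gene and FPKM per gene, both used here; 0 columns of per-sample values were unused. Which gene annotation was counted, and whether by strand, is not given in the sources used here. Column headings number the libraries 1 and 2 within a group, numbers that the sample titles do not carry, and A and B follow them.

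Counts were tested with edgeR 4.0.16 in R 4.3.3 (TMM, filterByExpr with a minimum count of 10, quasi-likelihood test, Benjamini-Hochberg over 19884 genes), in 1 fit of all 13 libraries with group means and 6 residual degrees of freedom. A gene passed at an adjusted p under 0.05, and rose or fell only then. On simulated counts for 5C-C against 5C, 37% of genes changed by 1 and 67% of those changed by 2 on the log2 scale were recovered, and 0.06% of unchanged genes were called. These counts were simulated without the trend with GC content that the data have, and fitted without the offset. The rates therefore do not give those of the comparisons above. The offset was a natural spline of each library's log2 CPM deviations on GC content (5 degrees of freedom) and length (4), for genes found in GENCODE vM39. DESeq2 1.42.0 and limma 3.58.1 served as alternatives.

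All 10 members are named, with the gene of the highest correlation to each, and from each pathway list at most 4 passing genes of largest change per comparison. Members and lists were chosen with earlier results of these data known. Some results around these genes are not reported here.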

Additional observations from a re-analysis of the deposited data

How the results depend on the processing

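Counts of the members ran from 160 to 10013 per library, and no group had more than 2 libraries. Over 15, 19 or 27 alternatives for each value (other scalings, tools, filters, the offset, the replicate block, and leaving out each library), the falls of Prkd3 and Prkaa2 in 5C-G and of Rock2 and Prkd3 in 5C-C passed every time. Leaving out libraries with the offset, and the block, were added after seeing the data. Against the mean of the other removals, single values were followed under every alternative for the genes of the withheld compound's own kinase. Counted once for each value and alternative, 842 log2 fold changes kept direction and side of the threshold, 66 no longer passed, 37 newly passed and 59 changed sign. The offset with a library left out was followed only for values that passed both with and without the offset. The alternatives share libraries, so these counts are not a rate. Where no cause is named, the cause was not tested.

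The libraries of different groups share only a number, 1 or 2, in the column headings. Deviations of libraries with the same number correlated at -0.03 to 0.10 over the 15 pairs of groups, so the numbers were not taken to pair them. With the number as a replicate block, members passing were 0 in 5C against DMSO (8.26% of all genes), 5 in 5C-F (16.1%), 6 in 5C-G (30.1%), 2 in 5C-E (4.65%) and 8 in 5C-C (38.3%), and against the mean of the other removals 1 in 5C-G (13.1%), 6 in 5C-C (28.2%) and 7 in 5C-E (30.5%). With the block and the offset together they were, in the same order, 0 (8.68%), 2 (11.9%), 3 (21%), 2 (4.16%) and 5 (25.3%), and 3 (14.7%), 1 (19.5%) and 5 (22.8%).

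Shares in parentheses are those of all genes that passed under the same alternative. Members passing in 5C against DMSO were 2 with only the groups compared (30.5%). In 5C-G against 5C they were 3 with only the groups compared (24.9%) and 3 with the offset (20.2%), and between 2 and 6 when a library was left out (10.7% to 32%). In 5C-C against 5C they were 5 with the offset (24.9%), and between 3 and 8 when a library was left out (13.8% to 36.5%). In 5C-E against 5C they were 1 by DESeq2 (7.89%), 2 without a filter (4.04%), 2 with only the groups compared (13.9%) and 2 with the offset (3.72%). In 5C-F against 5C they were 5 by DESeq2 (21.7%), 5 without a filter (11.2%), and between 0 and 3 when a library was left out (1.56% to 7.28%). In 5C-G against the mean of the other removals they were 1 with DESeq2 size factors (10.4%), 1 by DESeq2 (15%), 1 without a filter (9.34%), 1 with at least 10 counts in every library (14%), 3 with the offset (14%), and between 0 and 3 when a library was left out (6.24% to 17.2%). In 5C-C against the mean of the others they were 1 with the offset (18.6%) and between 0 and 6 when a library was left out (6.79% to 30.3%), and in 5C-E against the mean of the others between 0 and 7 (6.9% to 33.1%).

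Of the values that changed sign, only Prkab1 in 5C-C had passed as reported, and only Prkaa2 in 5C-E against the other removals, with the offset and the block together, passed after the change (-0.52, adjusted p = 0.0316). With the offset, the log2 fold change turned to -0.06 for Rock1 and -0.06 for Prkaa1 and 0.07 for Prkab1 in 5C against DMSO, to -0.04 for Prkd2, 0.05 for Prkaa1 and -0.21 for Prkab1 in 5C-G, to -0.31 for Prkd2 and -0.08 for Prkab1 in 5C-C, to 0.07 for Prkaa1 in 5C-E, and to 0.01 for Rock1, 0.23 for Prkaa2 and -0.08 for Prkab1 in 5C-F. Against the mean of the other removals it turned to 0.02 for Rock1 in 5C-G, and to -0.51 for Prkaa2 and 0.27 for Prkab1 in 5C-E. Of the genes not followed there, the offset turned Prkaa2 from -0.41 to 0.24 and Prkab1 from 0.26 to -0.03 in 5C-C, and Rock2 from 0.39 to -0.17 in 5C-E. With the block added to the offset the followed values that the offset had turned changed sign as well, to 0.06 for Prkab1 in 5C against DMSO, -0.20 for Prkab1 in 5C-G, 0.00 for Rock1 and 0.22 for Prkaa2 in 5C-F, and 0.26 for Prkab1 in 5C-E against the others, and the rest were as with the offset alone. For Prkab1, 5C against DMSO turned to 0.03 with total counts and 0.02 with limma on FPKM, and 5C-E against the others, at 0.00 as reported, to 0.20 with total counts, 0.20 and 0.21 with limma, 0.04 without a filter, 0.03 with at least 10 counts 0.03 with only the groups compared and 0.00 with the block. When a library was left out, values that changed sign ranged, in 5C against DMSO, from -0.02 to 0.10 for Prkaa1, from -0.17 to 0.07 for Prkab1 and from -0.02 to 0.38 for Prkab2. They ranged from -0.26 to 0.10 for Prkab2 in 5C-E and from -0.74 to 0.10 for Prkaa2 in 5C-F. Against the mean of the other removals they ranged from -0.68 to 0.35 for Rock1 and from -0.10 to 0.68 for Rock2 in 5C-G, from -0.26 to 0.07 for Prkd1 and from -0.29 to 0.11 for Prkd2 in 5C-C, and from -0.20 to 0.35 for Prkaa2 and from -0.07 to 0.07 for Prkab1 in 5C-E.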
